A study of Drosophila melanogaster with 30 samples.

Results

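The vacuolar H+ ATPase (V-ATPase) of *Drosophila melanogaster* is encoded by *Vha* genes, and their transcripts were measured by RNA sequencing of whole late-third-instar larvae. All genes whose symbol starts with *Vha* were taken, and those with at least 10 counts in at least 5 libraries were analysed. Of 34 *Vha* genes among 17713 features, 32 met this criterion, namely 15 principal copies, 1 for each subunit, and 17 secondary copies. The pair left out, *Vha16-2* and *Vha16-4*, had at most 2 and 6 counts in any library.

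Groups were *HR3-RNAi* refed, *HR3-RNAi* low cholesterol, *TOR-RNAi* refed, *TOR-RNAi* low cholesterol, control refed and control low cholesterol, with 5 replicates of 5 pooled larvae each, 30 libraries in total. All animals carried 1 copy of *Tub-GAL80TS* and of *Tub-GAL4*, a driver active in nearly all tissues whose GAL80 repressor works at 18 °C and is inactivated at 29 °C. All animals, controls included, were raised at 18 °C, then moved to 29 °C and kept there on both diets. Knockdown animals additionally carried *UAS-Hr3-RNAi* or *UAS-Tor-RNAi*, which target the nuclear receptor HR3 and the growth kinase TOR, whereas controls carried the driver alone and no RNAi transgene. Every animal first fed for 10 h on food with 1.2 µg/mL cholesterol and then spent 10 h either on 80 µg/mL cholesterol (refed) or on fresh 1.2 µg/mL food (low cholesterol). Whether replicates came from separate cultures is not stated, so that p-values measure the spread between pools only.

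The V-ATPase is a rotary pump that uses ATP to move protons across membranes. Its cytosolic V1 sector hydrolyses ATP, and its membrane-embedded V0 sector carries the protons. In most cells the pump acidifies endosomes and lysosomes, where lipoprotein-borne cholesterol esters are cleaved, and at the lysosomal surface it is part of the machinery through which the Rag GTPases and Ragulator recruit the TOR complex. In insects it also sits in the plasma membrane of epithelia such as the Malpighian tubules, where it energizes ion transport.

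Total counts ranged from 19744564 to 33510753 per library. A level of 3 counts, taken as the detection floor, corresponded to 0.091 to 0.172 CPM (counts scaled by the adjusted library size), and such floors cover counting error only. The knockdown of *Tor* (*mTor*) was visible as 29.0, 25.5, 32.5, 33.1 and 28.9 CPM in refed *TOR-RNAi* larvae, against 51.4, 50.9, 54.6, 45.3 and 55.0 CPM in refed controls. Most *Hr3* values lay close to the detection floor, so its knockdown could not be checked against controls at this depth. Relative to controls, a decrease of *Hr3* was not detected (0.249, 0.213, 0.187, 0.204 and 0.183 CPM in refed *HR3-RNAi* larvae, against 0.173, 0.199, 0.196, 0.82 and 0.105 CPM in refed controls), and over both diets the gene was not called (log2 fold change -0.39, standard error 0.3, adjusted p = 0.495 from edgeR). Against *TOR-RNAi* larvae over both diets, *Hr3* was lower in *HR3-RNAi* larvae, at levels near the floor. The log2 fold change was 0.96 (*TOR-RNAi* minus *HR3-RNAi*, adjusted p = 0.031 from edgeR, where 10.6% of genes were called). These animals are called *HR3-RNAi* after their label. In the libraries TOR-RNAi low cholesterol 1 and control refed 2, the male-specific RNAs *roX1* and *roX2* summed to 3.79 and 10.2 CPM, against 33.2 to 182 CPM in the other 28, and 4 testis markers summed to 0.0574 and 0.0663 CPM, against 39.6 to 309 CPM. In whole larvae, fewer cells of a type and less RNA per cell cannot be told apart.

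Principal copies had between 104 and 1328 FPKM in every library. Levels between genes are given as FPKM, which are scaled by transcript length, and as medians over 30 libraries. In the V1 sector, *Vha68-2*, encoding the catalytic A subunit, had 545 FPKM, and *Vha55*, encoding the B subunit that shares the nucleotide-binding ring with A, had 446 FPKM. The peripheral stalk genes *Vha13* (G) and *Vha26* (E) had 924 and 335 FPKM. The central stalk genes *Vha36-1* (D) and *Vha14-1* (F) had 313 and 399 FPKM. *VhaSFD* (H) and *Vha44* (C), whose products link the 2 sectors, were lower, at 196 and 123 FPKM.

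In the V0 sector, *Vha16-1*, encoding the proteolipid c of which the proton ring holds several copies, was the highest *Vha* gene at 1075 FPKM. The second kind of ring subunit, *VhaPPA1-1* (c''), had 363 FPKM, *VhaAC39-1* (d) had 275 FPKM, and *VhaM9.7-b* (e) had 219 FPKM. *Vha100-2*, the principal copy of the a subunit through which protons enter and leave the ring, had 158 FPKM. The accessory genes *VhaAC45* and *VhaM8.9*, the fly counterpart of the prorenin receptor, had 300.3 and 355 FPKM. Each of the 15 genes varied little between replicates, with a mean coefficient of variation within groups of 7.32 to 9.08%.

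**Figure D1:**
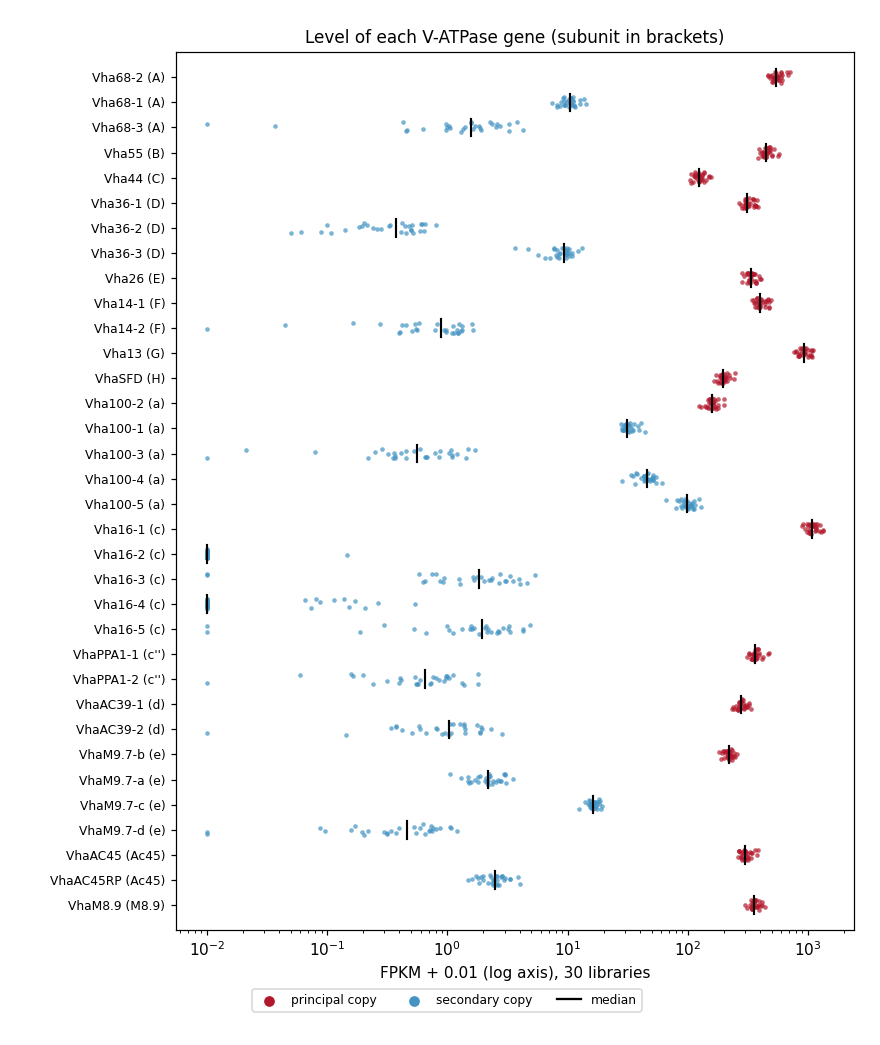
FPKM (plus 0.01, log axis) of the 34 *Vha* genes in each of 30 libraries (points), with the subunit in brackets and the median as a black line. Principal copies (red) lie between 104 and 1328 FPKM, and secondary copies (blue) other than *Vha100-5*, *Vha100-4* and *Vha100-1* reach at most 19.3 FPKM.

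In all, 9 subunit families held more than 1 copy, and in 8 of them the principal copy supplied over 90% of the family's summed FPKM in every library. Mean shares over 30 libraries were 99.8% for *Vha14-1* and *VhaPPA1-1*, 99.6% for *Vha16-1* and *VhaAC39-1*, 99.2% for *VhaAC45*, 97.8% for *Vha68-2*, 97.2% for *Vha36-1* and 92.0% for *VhaM9.7-b*. The a subunit was the exception. *Vha100-2* supplied 47.3% of the Vha100 sum (40.9 to 53.0%), *Vha100-5* 29.4% (22.6 to 33.5%), *Vha100-4* 13.4% (8.61 to 16.9%) and *Vha100-1*, known for its role in neurons, 9.65% (7.11 to 12.9%), whereas *Vha100-3* supplied 0.196%.

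The next secondary copies in level were *VhaM9.7-c* (16.3 FPKM, range 12.5 to 19.3), *Vha68-1* (10.5 FPKM, range 7.42 to 14.3) and *Vha36-3* (9.43 FPKM, range 3.67 to 13.2). *VhaAC45RP* and *VhaM9.7-a* had 2.48 and 2.19 FPKM. The remaining 9, *Vha68-3*, *Vha36-2*, *Vha14-2*, *Vha100-3*, *Vha16-3*, *Vha16-5*, *VhaPPA1-2*, *VhaAC39-2* and *VhaM9.7-d*, had medians of 0.364 to 1.94 FPKM and at most 5.31 FPKM in any library.

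Several copies lie beside each other in the genome (BDGP6 annotation). *Vha68-2* (chromosome 2L, 12974322 to 12978607) is separated by 178 bases from *Vha68-3* (chromosome 2L, 12978786 to 12981293), and *Vha68-1* (chromosome 2L, 13000770 to 13004107) lies 19476 bases farther on. *Vha100-2* (chromosome 3R, 18390323 to 18399169) and *Vha100-4* (chromosome 3R, 18386841 to 18389805) are 517 bases apart on the same strand. *Vha16-2* and *Vha16-3* are 985 bases apart on chromosome 3L, and *VhaPPA1-1* and *VhaPPA1-2* are 2052 bases apart on chromosome 3R. These neighbours differed widely in level, as *Vha68-2* and *Vha68-3* had 545 and 1.56 FPKM. Exons of *Vha44*, *Vha100-1*, *Vha100-4*, *Vha100-5* and *VhaPPA1-2* overlap a gene on the opposite strand by 148, 11, 47, 527 and 12 bases, and whether counting used strand is not given in the sources used here. How reads shared by similar copies were assigned is not given either, so that low levels of secondary copies are uncertain.

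The 15 principal copies varied together. After subtraction of group means from log2 CPM, the 105 pairs of principal copies had correlations over the 30 libraries of 0.59 to 0.969, with a median of 0.904. Libraries share their depth and scaling factor across genes, so these values are a description. *Vha100-5* followed the principal copies (median r 0.692), *VhaM9.7-c* and *Vha36-3* did so less closely (median r 0.538 and 0.396), and *Vha100-1* and *Vha100-4* had median r of 0.213 and 0.209. *Vha68-1*, *VhaM9.7-a* and *VhaAC45RP* had median r of -0.244, -0.32 and -0.338, and the other 9 secondary copies had median r of -0.584 to -0.312.

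Relations to the *roX* RNAs, which are produced in males and coat their X chromosome, were computed for each of the 17 secondary copies. A set of 9 low copies was then chosen from these values, as those with a within-group r to *roX* over 0.7 and under 6 FPKM in every library, so that their relation to *roX*, and what follows from it, is a description and no finding about low copies in general. *VhaM9.7-a* and *VhaAC45RP*, also under 6 FPKM in every library, had r of 0.312 and 0.131 and were not in the set. *Vha68-3*, the copy with the highest r, had 2.56, 2.49, 5.94, 7.86 and 4.06 CPM in refed *TOR-RNAi* larvae and 0, 7.61, 2.37, 10.1 and 4.66 CPM in *TOR-RNAi* larvae on low cholesterol. In controls it had 2.43, 0.0663, 1.56, 6.27 and 1.10 CPM after refeeding and 8.88, 3.88, 3.90, 1.04 and 4.46 CPM on low cholesterol. Its lowest values were in the libraries with the lowest *roX* level, and no group stood apart. Across 30 libraries, Pearson's r of log2(CPM + 0.1) with log2 *roX* was 0.923 and Spearman's rho 0.866 (permutation test, two-sided, p = 1e-05 for both, the smallest that 100000 permutations give, adjusted p = 1.89e-05 and 2.12e-05 over 17 relations). With both low-*roX* libraries left out, which are also those farthest from the median, r was 0.773, and within groups it was 0.932.

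Of 17 secondary copies, 10 had a positive relation to *roX* with an adjusted p under 0.05, namely the 9 in the set and *Vha68-1* (r = 0.705, rho = 0.695, permutation test, adjusted p = 1.89e-05), and *Vha100-1* had a negative one (r = -0.435, rho = -0.47, adjusted p = 0.0251). The share of all genes related to *roX* was not computed, so these counts show nothing particular to *Vha* genes. Without the farthest pair of libraries, r of those 10 lay between 0.584 and 0.783 and that of *Vha100-1* was -0.418. With 4 testis markers in place of *roX*, r was 0.679 to 0.96 for the 9 in the set, 0.207 for *VhaM9.7-a* and 0.0916 for *VhaAC45RP*. For *Vha68-1*, outside the set, it was 0.625 (permutation test, adjusted p = 8.5e-05). The negative relation of *Vha100-1* was not called with these markers (r = -0.239, permutation test, adjusted p = 0.27). None of the 10 is annotated on the X chromosome, where *Vha36-3* and *VhaAC39-1* lie.

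All 15 principal copies had a negative r with *roX*, from -0.569 (*Vha14-1*) to -0.353 (*Vha26*), and 9 of these relations had an adjusted p under 0.05 (permutation test, 15 relations, a set chosen after the data were seen). As for the secondary copies, no share over all genes was computed beside this count. Spearman's rho of the principal copies ranged from -0.684 to -0.443. Within groups r lay between -0.63 and -0.288, and without the farthest pair of libraries between -0.57 and -0.345. With the 4 testis markers in place of *roX*, r of the principal copies lay between -0.519 and -0.284. Only that of *Vha14-1* then had an adjusted p under 0.05 (0.0148, permutation test), against 0.0519 to 0.132 for the others. Summed over the 15 genes, principal copies made up 12185, 11120.0, 12076, 11736 and 11600.0 CPM in refed *TOR-RNAi* larvae, against 14167, 13684, 13926, 12233 and 14881 CPM in refed controls. The *roX* sum in the same libraries was 88.7, 56.8, 71.7, 177 and 48.8 CPM in refed *TOR-RNAi* larvae, against 53.6, 10.2, 33.3, 166 and 50.3 CPM in refed controls. Where stated, comparisons were also fitted with the *roX* level as a covariate.

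**Figure D2:**
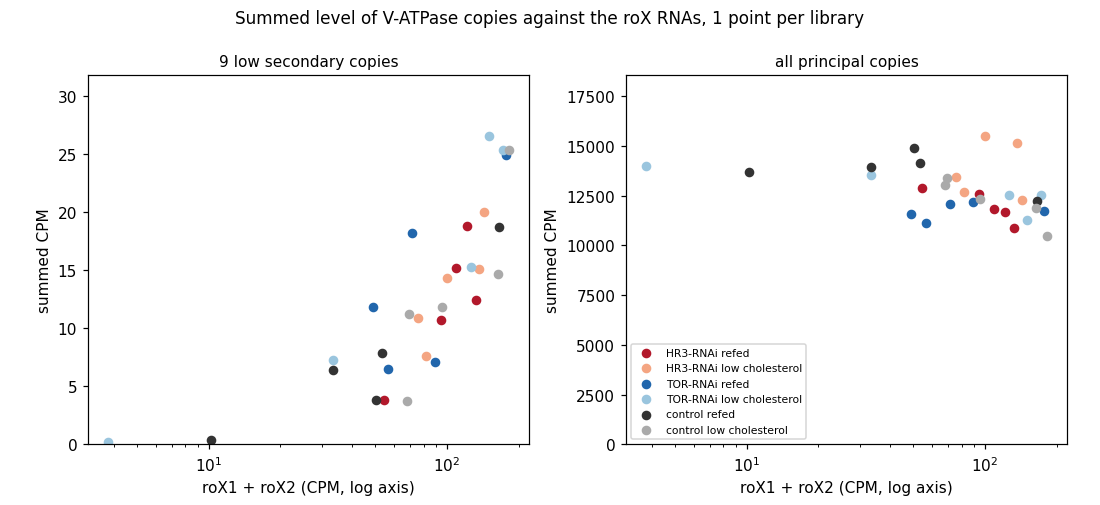
Summed CPM of the 9 low secondary copies chosen for their relation to *roX* (left) and of the 15 principal copies (right) against the summed *roX1* and *roX2* level (CPM, log axis), 1 point per library, coloured by group. By that choice, the low copies are near 0 in the 2 libraries with the lowest *roX* level and rise to 26.5 CPM, whereas the principal copies stay between 10464 and 15483 CPM.

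The first question was whether cholesterol refeeding changed the pump genes within each genotype. In controls, estimates for the principal copies lay slightly above 0 and did not pass the test. All 15 had a log2 fold change above 0, from 0.10 (*Vha36-1*) to 0.28 (*Vha100-2*), with a median of 0.18, against a median close to 0 for all genes tested. None of the 29 members tested had an adjusted p under 0.05 in edgeR's quasi-likelihood test, where 3.83% of 11374 genes did. At an unadjusted p under 0.05, 12 members were called, 11 principal copies higher and *Vha68-1* lower, where 14.9% of genes were called. DESeq2's Wald test called 4 at an adjusted p under 0.05 (*Vha100-2*, *Vha55*, *VhaAC45* and *VhaPPA1-1*, each higher), against 6.66% of genes.

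The smallest p in controls belonged to *VhaPPA1-1* and *VhaAC45*. *VhaPPA1-1* had 545, 518, 543, 482 and 575 CPM in refed controls, against 406, 508, 444, 476 and 455 CPM in low-cholesterol controls (log2 fold change 0.23, standard error 0.061, adjusted p = 0.075 from edgeR). Its groups overlapped, as the lowest refed value lay below the highest low-cholesterol value. *VhaAC45*, whose product assists assembly of the V0 sector, had 658, 676, 691, 594 and 745 CPM in refed controls, against 509.5, 617, 567, 623 and 542 CPM on low cholesterol (log2 fold change 0.24, standard error 0.069, adjusted p = 0.0984). The *roX* sum was 53.6, 10.2, 33.3, 166 and 50.3 CPM in refed controls, against 182, 69.4, 95.4, 67.8 and 164 CPM on low cholesterol. With *roX* as a covariate the median of the principal copies was 0.10, and without control low cholesterol replicate 2, *VhaPPA1-1* passed the test.

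In *HR3-RNAi* animals the estimates had the opposite sign. All 15 principal copies were below 0 after refeeding (median -0.19, from -0.26 for *Vha16-1* to -0.05 for *Vha14-1*), against a median close to 0 for all genes. Of 31 members tested, 1 was called, *Vha100-5*, which was lower, where 3.44% of 11615 genes were called and 1.86% were called lower. *Vha100-5*, a secondary copy of the a subunit (chromosome 2L, 11738948 to 11744524), had 267, 235, 231, 194 and 272 CPM in refed *HR3-RNAi* larvae, against 321, 357, 378, 311 and 339 CPM on low cholesterol. The groups did not overlap, and the gene fell on refeeding (log2 fold change -0.51, standard error 0.090, adjusted p = 0.00866 from edgeR). How many of all genes had no overlap was not computed in this comparison, so the lack of overlap alone shows nothing particular to *Vha100-5*. It was called with each of the 10 libraries left out (log2 fold change -0.56 to -0.44) and with *roX* as a covariate.

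By unadjusted p under 0.05, 10 members were called in *HR3-RNAi* animals, 9 lower and *VhaAC45RP* higher, where 14.6% of genes were. DESeq2's Wald test called 4, *Vha100-5*, *Vha16-1*, *Vha26* and *Vha68-2*, each lower, against 6.35% of genes. *Vha16-1* had 3403, 3004, 3063, 2795 and 3379 CPM in refed *HR3-RNAi* larvae, against 3543, 4024, 4142, 3254 and 3868 CPM on low cholesterol, with an adjusted p of 0.12 from edgeR. The values of the proteolipid gene overlapped between the diets.

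Refeeding *TOR-RNAi* animals changed no member by edgeR's adjusted p, where 0.562% of 11569 genes were called. Of 31 members, 1 had an unadjusted p under 0.05 (8.23% of genes), *Vha16-1*, which was also called by DESeq2's Wald test (2.43% of genes). *Vha16-1* had 3231, 2914, 3034, 3074 and 2972 CPM in refed *TOR-RNAi* larvae, against 3811, 3388, 3650.2, 3098 and 3381 CPM on low cholesterol (log2 fold change -0.20, standard error 0.082, adjusted p = 0.541 from edgeR). *Vha68-2* had 1458, 1328, 1517, 1439 and 1391 CPM in refed *TOR-RNAi* larvae, against 1662, 1579, 1699, 1393 and 1578 CPM on low cholesterol (log2 fold change -0.16, standard error 0.079, adjusted p = 0.649). Both sets of values overlapped between diets. The median of the 15 principal copies was -0.10, with 14 below 0 and *VhaM9.7-b* at 0.02, and it was -0.07 without TOR-RNAi refed replicate 2.

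**Figure D3:**
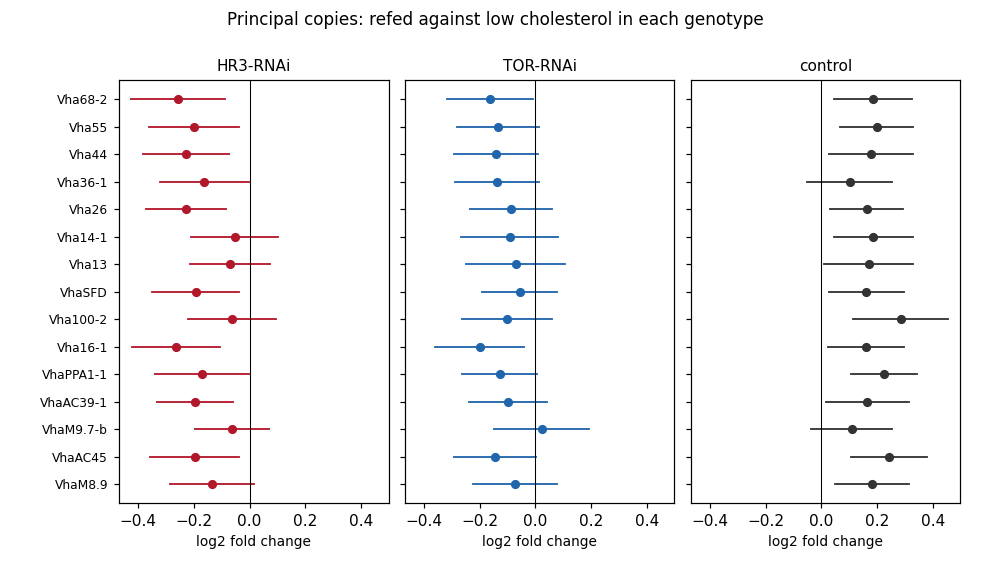
Log2 fold change of each principal copy, refed against low cholesterol, in *HR3-RNAi*, *TOR-RNAi* and control larvae (points, edgeR), with bars of 1.96 standard errors to either side. Estimates lie below 0 for all 15 genes in *HR3-RNAi* larvae, for 14 of 15 in *TOR-RNAi* larvae, and above 0 for all 15 in controls.

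Whether the response to refeeding differed between genotypes was tested directly as an interaction. Between *HR3-RNAi* animals and controls no member passed edgeR's adjusted threshold, nor did any of 12178 genes (0%). At an unadjusted p under 0.05, 14 of 32 members were called, where 6.72% of genes were, and 12 of them were principal copies with a lower response in *HR3-RNAi* animals. The smallest p belonged to *VhaAC45* (log2 difference -0.44, standard error 0.11, adjusted p = 0.332) and *Vha68-2* (log2 difference -0.44, standard error 0.12, adjusted p = 0.376). Per library, *VhaAC45* had 665, 575, 585, 542 and 606 CPM in refed *HR3-RNAi* larvae, against 634, 753, 782, 601 and 645 CPM in *HR3-RNAi* larvae on low cholesterol. Both groups overlapped, as did those of the controls given above. DESeq2's Wald test called 9 members, each with a lower response, against 0.304% of genes. The median difference of the principal copies was -0.36, between -0.40 and -0.30 with each library left out, and -0.31 with *roX* as a covariate, against 0.03 for all genes.

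Between *TOR-RNAi* animals and controls no interaction passed edgeR's adjusted threshold either, among members or among all genes (0%). At an unadjusted p under 0.05, 11 members were called, all principal copies with a lower response in *TOR-RNAi* animals, where 9.12% of genes were called. *VhaAC45* (log2 difference -0.37, adjusted p = 0.324) and *VhaPPA1-1* (log2 difference -0.33, adjusted p = 0.326) had the smallest p. *VhaAC45* had 588, 551, 572, 560.3 and 567 CPM in refed *TOR-RNAi* larvae, against 684, 619, 665, 538 and 604 CPM in *TOR-RNAi* larvae on low cholesterol. DESeq2's Wald test called 6, against 1.05% of genes. The median over principal copies was -0.26, against 0.06 for all genes, and -0.16 with *roX* as a covariate. Both interactions use the same control libraries, and the 15 genes vary together, so that their counts are not independent.

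The second question was which pump genes differed between knockdown and control larvae on the same diet. After refeeding, *TOR-RNAi* larvae had lower levels of 7 principal copies and a higher level of *Vha100-1*. These 8 were called among 32 members by edgeR's adjusted p, where 17.7% of 12178 genes were called, with 9.79% called lower and 7.93% called higher. With an unadjusted p under 0.05, 14 members were called (31.4% of genes), and DESeq2's Wald test called 10 (21.3% of genes). The central stalk subunit F, the peripheral stalk subunit G, the linker subunit C, the proteolipid c, subunits a and d and the accessory subunit Ac45 were each represented among the 7. All 15 principal copies were below 0, with a median of -0.22 against 0.06 for all genes.

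Among V1 genes, *Vha14-1* (chromosome 2R, 15679426 to 15680084) had 255, 232, 256, 244 and 251 CPM in refed *TOR-RNAi* larvae, against 334, 314, 318, 266 and 298 CPM in refed controls (log2 fold change -0.31, standard error 0.086, adjusted p = 0.0146 from edgeR). *Vha13* (chromosome 3R, 19643018 to 19644386) had 818, 767, 822, 818 and 809 CPM in refed *TOR-RNAi* larvae, against 1072, 993, 1024, 865 and 982 CPM in refed controls (log2 fold change -0.29, standard error 0.087, adjusted p = 0.0212). *Vha44* (chromosome 2R, 16324813 to 16336637) had 475, 431, 476, 469.6 and 453 CPM, against 559, 571, 542, 485 and 609 CPM in the same controls (log2 fold change -0.26, standard error 0.081, adjusted p = 0.0246). All 3 genes fell, and none of their refed *TOR-RNAi* values reached the lowest control value.

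Among V0 and accessory genes, *Vha16-1* (chromosome 2R, 6625242 to 6633090) had 3231, 2914, 3034, 3074 and 2972 CPM in refed *TOR-RNAi* larvae, against 3698, 3609, 3721, 3250.2 and 4032 CPM in refed controls (log2 fold change -0.27, standard error 0.078, adjusted p = 0.0192 from edgeR). *VhaAC45* (chromosome 2R, 9207561 to 9209774) had 588, 551, 572, 560.3 and 567 CPM in refed *TOR-RNAi* larvae, against 658, 676, 691, 594 and 745 CPM in refed controls (log2 fold change -0.24, standard error 0.078, adjusted p = 0.0308). Groups did not overlap for this pair, nor for the V1 genes above, 5 members in all, where 5.83% of genes were lower without overlap. *Vha100-2* had 489, 432, 515, 491 and 479.7 CPM in refed *TOR-RNAi* larvae, against 558, 577, 592, 514 and 659.6 CPM in refed controls (log2 fold change -0.27, standard error 0.088, adjusted p = 0.0338). *VhaAC39-1* (chromosome X, 3880748 to 3882967) had 501, 446, 491, 469.8 and 458 CPM in refed *TOR-RNAi* larvae, against 574, 563, 544, 482 and 584 CPM in refed controls (log2 fold change -0.22, standard error 0.075, adjusted p = 0.0476). Values of these last genes overlapped between the genotypes.

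*Vha100-1* (chromosome 3R, 29131193 to 29137980), the copy known from synapses, rose. It had 119, 132, 139.8, 92.6 and 131 CPM in refed *TOR-RNAi* larvae, against 107, 101, 104, 102 and 99.0 CPM in refed controls (log2 fold change 0.26, standard error 0.090, adjusted p = 0.0469 from edgeR), and 1 of the knockdown libraries lay below all 5 controls. The call was lost in 28 of 30 fits that left out 1 library (log2 fold change 0.19 to 0.33). The 4 nervous system markers summed to 142 to 186 CPM (median 170.0) in refed *TOR-RNAi* larvae, against 133 to 154 CPM (median 142) in refed controls. None of these markers was called, and their part in the result was not tested.

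The number of calls after refeeding depended on single libraries. It was 8 with all libraries, and 2, 4 and 5 without control refed replicates 5, 3 and 1, 3 without TOR-RNAi refed replicate 2, and 12 without control refed replicate 4. *Vha14-1* was called in every case (log2 fold change -0.35 to -0.27). With *roX* as a covariate 5 members were called (*Vha13*, *Vha14-1*, *Vha16-1*, *Vha44* and *Vha100-1*), and leaving out the 2 libraries with the lowest *roX* level gave 6.

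**Figure D4:**
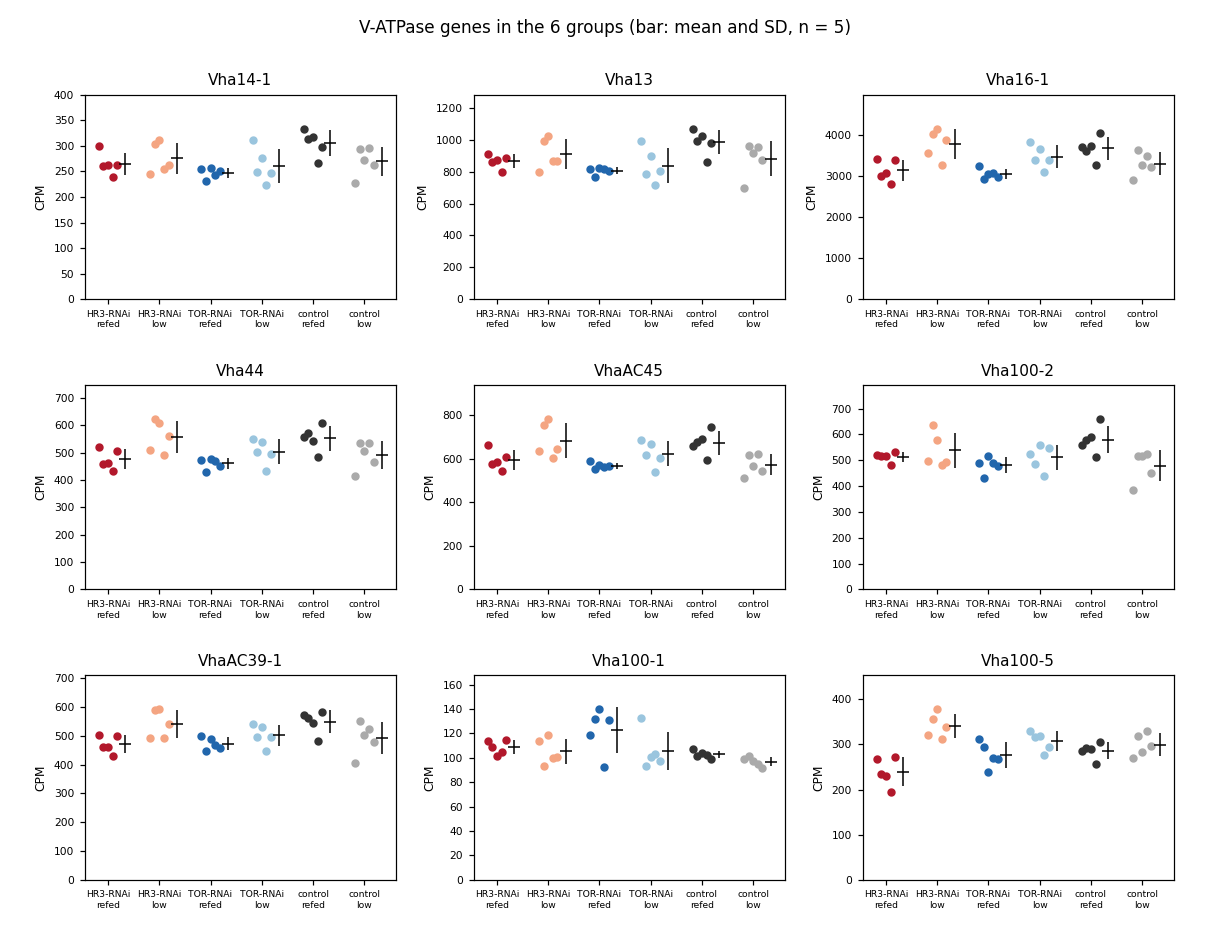
CPM of 9 *Vha* genes in each library of the 6 groups (points), with the mean and SD beside them (n = 5). In the refed *TOR-RNAi* group, all 5 values of *Vha14-1*, *Vha13*, *Vha16-1*, *Vha44* and *VhaAC45* lie below the lowest refed control. Values of *Vha100-5* do not overlap between the diets in *HR3-RNAi* larvae, a comparison in which the share of all genes without overlap was not computed.

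On low cholesterol, no member differed between *TOR-RNAi* larvae and controls by edgeR's adjusted p, at an unadjusted p under 0.05 or by DESeq2's Wald test, where 3.71%, 15.0% and 5.61% of genes were called. The smallest p belonged to *VhaPPA1-1*, at 564, 491, 527, 465 and 485 CPM in *TOR-RNAi* larvae, against 406, 508, 444, 476 and 455 CPM in controls (log2 fold change 0.15, standard error 0.075, adjusted p = 0.376 from edgeR). *Vha55* followed, at 1395, 1302, 1369, 1169.6 and 1269 CPM in *TOR-RNAi* larvae, against 1034, 1319, 1194, 1271 and 1157 CPM in controls (log2 fold change 0.12, standard error 0.077, adjusted p = 0.503). Values overlapped for both, and the median of the principal copies was 0.03, with 12 of 15 above 0 (-0.01 and 7 above 0 with *roX* as a covariate, and between -0.0046 and 0.10 with each library left out), with an estimate of *Vha14-1* of -0.05 (95% interval -0.22 to 0.12).

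Over both diets, 3 of 32 members differed between *TOR-RNAi* larvae and controls, where 20.9% of genes did. *Vha100-1* was higher (log2 fold change 0.19, standard error 0.064, adjusted p = 0.0331 from edgeR), and *Vha13* (log2 fold change -0.18, standard error 0.062, adjusted p = 0.0363) and *Vha14-1* (log2 fold change -0.18, standard error 0.061, adjusted p = 0.0385) were lower. On low cholesterol, *Vha100-1* had 133, 93.6, 101, 103 and 97.6 CPM in *TOR-RNAi* larvae, against 99.0, 102, 97.3, 94.6 and 91.6 CPM in controls. *Vha13* had 995, 784, 897, 717 and 806 CPM in *TOR-RNAi* larvae on low cholesterol, against 697, 965, 919.9, 955 and 873 CPM in controls, and *Vha14-1* had 311, 249, 277, 224 and 246 CPM, against 227, 293, 273, 296 and 262 CPM in controls. All 3 overlapped between the genotypes on this diet. DESeq2's Wald test also called 3 (23.5% of genes), as did an unadjusted p under 0.05 (33.1% of genes). The share of members called was below that of all genes in each case. Without TOR-RNAi low cholesterol replicate 1, which had 133 CPM of *Vha100-1* against 93.6 to 103 CPM in the rest of its group, *Vha100-1* was no longer called. No member was called with either control low cholesterol replicate 3 or 4, control refed replicate 5 or TOR-RNAi refed replicate 2 or 5 left out, and none when *HR3-RNAi* libraries stayed out of the fit. A single member was called without control low cholesterol replicate 2, control refed replicate 1, 2 or 3 or TOR-RNAi low cholesterol replicate 2, 4 or 5.

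Between *HR3-RNAi* larvae and controls, estimates for the principal copies had opposite signs on the 2 diets. After refeeding, all 15 principal copies were below 0 (median -0.19, against 0.03 for all genes), and none of 32 members was called, where 3.97% of 12178 genes were. By unadjusted p under 0.05, 13 members were called, all lower, where 16.8% of genes were called, and DESeq2's Wald test called 5 (6.66% of genes). *Vha100-5* had 267, 235, 231, 194 and 272 CPM in refed *HR3-RNAi* larvae, against 286, 291, 291, 256 and 306 CPM in refed controls (log2 fold change -0.25, standard error 0.085, adjusted p = 0.0909 from edgeR). *Vha68-2* (chromosome 2L, 12974322 to 12978607) had 1503, 1363, 1402, 1291 and 1487 CPM in refed *HR3-RNAi* larvae, against 1677, 1636, 1677, 1478 and 1867 CPM in refed controls (log2 fold change -0.24, standard error 0.081, adjusted p = 0.0957). Both overlapped between the genotypes. In 5 fits that left out 1 library, 1 member passed. It was *VhaAC39-1* without control low cholesterol replicate 1 and without control refed replicate 4, *Vha68-2* without HR3-RNAi low cholesterol replicate 2 and without TOR-RNAi low cholesterol replicate 4, and *Vha100-5* without HR3-RNAi refed replicate 5.

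On low cholesterol, all 15 principal copies were above 0 in *HR3-RNAi* larvae (median 0.18, against 0.01 for all genes). Without control low cholesterol replicate 1 the median was 0.11, and without HR3-RNAi low cholesterol replicate 2 it was 0.12, each with 12 of 15 above 0. *VhaPPA1-1* (chromosome 3R, 14902330 to 14904061) alone was called, where 2.61% of genes were called and 1.30% were called higher. It had 506, 621, 649, 493 and 491 CPM in *HR3-RNAi* larvae, against 406, 508, 444, 476 and 455 CPM in controls on low cholesterol, with overlapping values (log2 fold change 0.27, standard error 0.075, adjusted p = 0.0498 from edgeR). At an unadjusted p under 0.05, 10 members were called (12.5% of genes), and DESeq2's Wald test called 3 (4.19% of genes). The adjusted p of *VhaPPA1-1* lies at the threshold, and with each of 30 libraries left out it was called in only 3 fits (log2 fold change 0.20 to 0.31, adjusted p up to 0.269). Over both diets no member differed between *HR3-RNAi* larvae and controls by edgeR's adjusted or unadjusted p or by DESeq2's Wald test, where 7.53%, 20.3% and 10.2% of genes were called. *Vha36-1* (log2 fold change -0.10, standard error 0.060, adjusted p = 0.385) and *Vha100-1* (log2 fold change 0.10, standard error 0.064, adjusted p = 0.396) had the smallest p. *Vha36-1* had 347, 314, 311, 288 and 333 CPM in refed *HR3-RNAi* larvae, against 408, 371, 377, 319 and 388 CPM in refed controls, and 324, 405, 398, 319 and 340.0 CPM in *HR3-RNAi* larvae on low cholesterol, against 291, 386, 356, 383 and 329 CPM in controls. *Vha100-1* had 114, 109, 102, 105 and 115 CPM in refed *HR3-RNAi* larvae, against 107, 101, 104, 102 and 99.0 CPM in refed controls, and 114, 93.5, 118, 99.8 and 101 CPM on low cholesterol, against 99.0, 102, 97.3, 94.6 and 91.6 CPM in controls. Both genes overlapped between the genotypes on each diet. The 3 sets of comparisons with controls, diet, *TOR-RNAi* and *HR3-RNAi*, share their control libraries.

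Compared over both diets, *TOR-RNAi* and *HR3-RNAi* larvae did not differ in any member by edgeR's adjusted p or by DESeq2's Wald test, where 10.6% and 12.9% of genes were called. *VhaM9.7-c* was the single member with an unadjusted p under 0.05 (21.5% of genes). *VhaM9.7-c*, a secondary copy of subunit e, had 12.1, 14.2, 13.6, 12.7 and 15.0 CPM in refed *TOR-RNAi* larvae, against 15.3, 13.9, 12.9, 13.5 and 15.0 CPM in refed *HR3-RNAi* larvae, and 15.9, 13.1, 13.4, 10.2 and 13.0 CPM in *TOR-RNAi* larvae on low cholesterol, against 13.8, 15.2, 15.7, 15.0 and 16.1 CPM in *HR3-RNAi* larvae (log2 fold change -0.13, standard error 0.064, adjusted p = 0.221 from edgeR over both diets). *Vha100-4* was next (log2 fold change -0.19, standard error 0.095, adjusted p = 0.253), with 129, 105, 122, 98.0 and 93.7 CPM in refed *TOR-RNAi* larvae, against 137, 111, 125, 122 and 142 CPM in refed *HR3-RNAi* larvae.

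Use of copies within a family was compared as the principal copy's share of the family's summed FPKM, in 9 families and 7 comparisons. No share differed at an adjusted p under 0.05 in a two-sided exact permutation test over 63 tests, and 12 had an unadjusted p under 0.05, where 0.00794 is the smallest p that 5 libraries against 5 allow. Even at this smallest p, a shift in the 7 comparisons of 1 family alone could not reach an adjusted p under 0.05. The absence of adjusted calls therefore does not show that the use of copies was unchanged. *Vha100-2* made up 50.7 ± 1.81% of the Vha100 sum in refed controls and 45.5 ± 3.13% in low-cholesterol controls (SD, n = 5 each, exact permutation test, p = 0.0238, adjusted p = 0.214). In *HR3-RNAi* larvae its share was 49.6 ± 1.67% after refeeding and 45.4 ± 2.34% on low cholesterol (exact permutation test, p = 0.0238, adjusted p = 0.214). In refed *TOR-RNAi* larvae it was 46.4 ± 2.77%, against the 50.7 ± 1.81% of refed controls (exact permutation test, p = 0.0238, adjusted p = 0.214). The *VhaAC45* family held 5 of the 12. *VhaAC45* made up 99.3 ± 0.12% of its family's sum in refed controls and 99.0 ± 0.212% in low-cholesterol controls (exact permutation test, p = 0.0238, adjusted p = 0.214). In *HR3-RNAi* larvae the difference had the opposite sign, with 99.0 ± 0.283% after refeeding and 99.4 ± 0.216% on low cholesterol (exact permutation test, p = 0.0397, adjusted p = 0.227). *HR3-RNAi* larvae minus controls gave -0.309 percentage points after refeeding and 0.415 on low cholesterol (exact permutation test, p = 0.0238 and adjusted p = 0.214 for both), and refed *TOR-RNAi* larvae minus refed controls gave -0.199 (exact permutation test, p = 0.0317, adjusted p = 0.222). The other 4 were 2 of *Vha68*, 1 of *VhaM9.7* and 1 of *Vha36* (adjusted p 0.214 to 0.25).

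Secondary a subunit copies differed among themselves. *Vha100-5* had 239.7 ± 31.6 CPM in refed *HR3-RNAi* larvae and 341 ± 26.9 CPM in *HR3-RNAi* larvae on low cholesterol (SD, n = 5 each), with 276 ± 28.5 and 307 ± 21.6 CPM in *TOR-RNAi* larvae and 286 ± 18.7 and 299 ± 25.3 CPM in controls on the same diets. *Vha100-4* varied more between replicates and did not separate any groups, with 142, 103, 120.5, 126 and 126 CPM in refed controls, against 135, 135, 97.9, 120.4 and 119 CPM on low cholesterol. *Vha100-3* ranged from 0 to 4.79 CPM and followed *roX* as described.

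**Figure D5:**
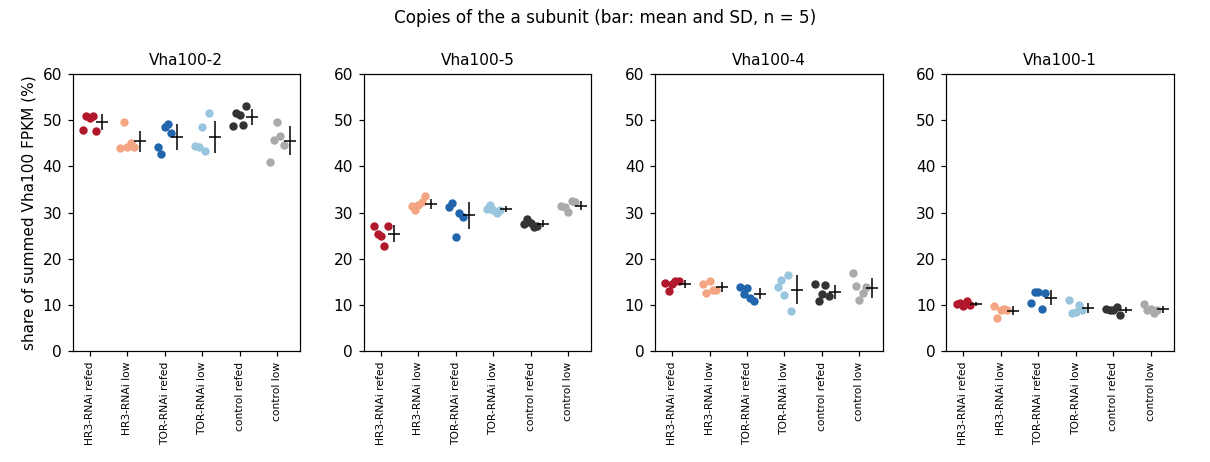
Share of the summed Vha100 FPKM taken by 4 copies of the a subunit in each library of the 6 groups (points), with the mean and SD (n = 5). *Vha100-2* lies between 40.9 and 53.0% and *Vha100-5* between 22.6 and 33.5%, and no difference in the share of *Vha100-2* passed the adjusted threshold.

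The low secondary copies were not called in any comparison. Across refed *TOR-RNAi* larvae and refed controls the 17 secondary copies had a median log2 fold change of 0.38 and a range of -0.32 to 1.02, with a median standard error of 0.60, against 0.08 for principal copies. *Vha16-5* had 0.974, 0.761, 2.02, 3.03 and 1.35 CPM in refed *TOR-RNAi* larvae, against 1.17, 0, 0.822, 2.32 and 0.21 CPM in refed controls (log2 fold change 0.87, standard error 0.8, adjusted p = 0.448 from edgeR). *VhaPPA1-2* had 0.103, 0.211, 0.636, 1.18 and 0.263 CPM in refed *TOR-RNAi* larvae, against 0.39, 0.0332, 0.274, 0.483 and 0.158 CPM in refed controls. In the same comparison the median over the 4 testis markers was 1.05 on the log2 scale, and none was called.

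Genes that assemble the pump or act with it at the lysosome were examined as lists. *Rbcn-3A*, encoding a component of the rabconnectin (RAVE-like) complex that assembles V1 onto V0, fell in refed *TOR-RNAi* larvae relative to refed controls (log2 fold change -0.27, standard error 0.061, adjusted p = 0.0037 from edgeR). Its values were 133, 111, 111, 123 and 120.4 CPM in refed *TOR-RNAi* larvae, against 135, 147, 145, 135 and 158 CPM in refed controls. *Rbcn-3B*, of the same complex, was not called (log2 fold change 0.03, standard error 0.055, adjusted p = 0.768). The decrease of *Rbcn-3A* was not limited to refed larvae. On low cholesterol its log2 fold change was -0.21, not called (adjusted p = 0.0585 from edgeR). Over both diets it was lower than in controls (-0.24, adjusted p = 0.0003, 20.9% of genes called). It was also lower than in *HR3-RNAi* larvae (-0.20, adjusted p = 0.0017, 10.6% of genes called). *Mitf*, the transcription factor known to drive V-ATPase and lysosomal genes, was not called in any of the 12 comparisons (log2 fold change 0.02, standard error 0.057, adjusted p = 0.798 in refed *TOR-RNAi* larvae).

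Of 13 lysosomal genes tested, 5 rose and none fell in refed *TOR-RNAi* larvae, where 17.7% of genes were called, 7.93% higher and 9.79% lower, with a list median of 0.26 against 0.06 for all genes. They were *CtsL1* (log2 fold change 0.37, standard error 0.11, adjusted p = 0.0162) and *cathD* (log2 fold change 0.60, standard error 0.16, adjusted p = 0.0126), encoding proteases, *Npc1a* (log2 fold change 0.26, standard error 0.083, adjusted p = 0.0316), encoding the lysosomal cholesterol exporter, *Gba1a* (log2 fold change 0.66, standard error 0.14, adjusted p = 0.0015) and *Hexo1* (log2 fold change 0.40, adjusted p = 0.00995). Over both diets, 7 of 13 were called between *TOR-RNAi* larvae and controls, 6 higher and 1 lower, where 20.9% of genes were called. On low cholesterol 1 of 13 was called, higher, where 3.71% of genes were called. In controls, refeeding lowered *Gba1a*, a glucocerebrosidase gene, and *CtsL1* and raised *Hexo1*, 3 of 13, where 3.83% of genes were called. *Gba1a* had 152, 190.4, 127, 145 and 158 CPM in refed controls, against 693, 746, 552, 774 and 681 CPM on low cholesterol (log2 fold change -2.15, standard error 0.13, adjusted p = 5.28e-06). The list also responded to refeeding in the knockdowns. In *HR3-RNAi* larvae 2 of 13 were called, 1 higher and 1 lower, where 3.44% of genes were called. In *TOR-RNAi* larvae 1 of 13 was called, lower, where 0.562% of genes were called. The lowest log2 fold changes of the list were -1.73 and -1.47. None of the 6 Rag and Ragulator genes tested was called in any of the 12 comparisons by edgeR's adjusted p, with list medians of -0.02 to 0.11. Between 0 and 20.9% of all genes were called in these comparisons, and a list of 6 is too short to show a lower share. Markers of tubules, fat body and midgut were summed beside these results. The 5 Malpighian tubule markers, of which none was called, came to 591 to 727 CPM in refed *TOR-RNAi* larvae, against 554 to 679 CPM in refed controls. The 5 fat body markers came to 70900 to 123000 CPM, against 103000 to 118000 CPM. The 6 midgut markers came to 2100 to 2890 CPM, against 2200 to 2540 CPM, and none was called in this comparison. Over both diets, 3 midgut markers were called between *HR3-RNAi* larvae and controls (7.53% of genes). Between *TOR-RNAi* larvae and controls, 3 midgut markers and 1 tubule marker were called over both diets (20.9% of genes). The part of these markers in the results was not tested.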

How the data were processed

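RNA was sequenced from pools of whole larvae. The authors deposited raw counts per gene, without normalization, and FPKM values, and the submitters' processing notes name HISAT2, StringTie and featureCounts, whose versions are not given in the sources used here. The deposited FPKM of *Vha* genes equalled counts divided by the annotated exon length and by a library scale proportional to DESeq2's size factors (ratio 1 in all libraries), whereas that scale was 0.859 to 1.105 times the total counts.

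Genes were matched by identifier: 29 *Vha* genes through current gene names, and 5 (*Vha44*, *Vha26*, *Vha13*, *VhaAC39-1* and *VhaM8.9*) through older identifiers paired with symbols in the study's supplementary material. Principal copies are those known as broadly expressed, and had the highest FPKM of each family. Members and gene lists were chosen with earlier results of these data known. Coordinates are from the BDGP6 annotation (Ensembl).

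Counts were tested with edgeR 4.0.16 (R 4.3.3) by the quasi-likelihood test after TMM normalization and filterByExpr, with Benjamini-Hochberg adjustment over all genes tested. Diet was tested within the 10 libraries of each genotype, where 3 members in controls (*Vha36-2*, *VhaPPA1-2* and *VhaM9.7-d*) and 1 in each knockdown (*VhaM9.7-d*) did not pass the filter. Genotype and interaction contrasts came from 1 fit of 30 libraries. CPM were computed from TMM-scaled library sizes. DESeq2 1.42.0 was an alternative. Per-library values are given for called members, or for the 2 with the smallest p where none was called, and for copies compared within families. Copy shares were compared by exact permutation tests, and relations to *roX* by 100000 permutations (scipy 1.17.1, pseudocount 0.1). Other alternatives were DESeq2's size factors, other filters, a replicate block, *roX* as a covariate, fewer genotypes and leaving out each library. The edgeR and DESeq2 scripts were checked on simulated counts.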

Additional observations from a re-analysis of the deposited data

Results flagged for a closer look

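In 5 of the 192 combinations of 32 members and 6 groups, 1 library lay far from the other 4 of its group by Dixon's test at the 95% level (a gap of more than 0.710 of the group's range), and chance flags about 5% of groups. *Vha68-1* had 36.4 CPM in TOR-RNAi refed 4, against 22.3 to 26.2 CPM in the rest of the group, and that library also had the highest *roX* level of its group, at 177 CPM. *Vha100-1* had 133 CPM in TOR-RNAi low cholesterol 1, against 93.6 to 103 CPM, in the library with the lowest *roX* level of all, at 3.79 CPM. *Vha13* had 767 CPM in TOR-RNAi refed 2, against 809 to 822 CPM. *Vha100-2* had 481 CPM in HR3-RNAi refed 4, against 517 to 531 CPM. *VhaAC45RP* had 5.12 CPM in HR3-RNAi low cholesterol 1, against 2.73 to 3.35 CPM.

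*Vha16-4*, a proteolipid copy below the count criterion and in no comparison, had 6 counts in TOR-RNAi refed 1, above the floor of 3 counts and above the control libraries, whose highest count was 1. Over 5 libraries each, it summed to 13 counts in refed *TOR-RNAi* larvae, 7 in *TOR-RNAi* larvae on low cholesterol, 3 and 1 in *HR3-RNAi* larvae and 0 and 1 in controls on the same diets.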

How the results depend on the processing

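No called gene changed direction under the alternatives run. Medians over the principal copies, in comparisons with none of them called, did. With *roX* as a covariate the median between *HR3-RNAi* larvae and controls over both diets was 0.01 with 10 of 15 above 0 (-0.02 and 4 without it), and that between *TOR-RNAi* larvae and controls on low cholesterol was -0.01 with 7 above 0 (0.03 and 12 without it), as it was close to 0 with 7 above 0 without control low cholesterol replicate 1. Of 116 values of called genes under other settings, 95 stayed past the threshold and 21 did not. At an unadjusted p under 0.05, edgeR called 12 members for refeeding of controls, 10 for *HR3-RNAi* and 1 for *TOR-RNAi* larvae, 13 and 10 between *HR3-RNAi* larvae and controls after refeeding and on low cholesterol, 14 between *TOR-RNAi* larvae and controls after refeeding, 14 and 11 for the interactions with *HR3-RNAi* and *TOR-RNAi*, and 1 between *TOR-RNAi* and *HR3-RNAi* larvae. DESeq2's Wald test called 4, 4 and 1 for refeeding in the same order of genotypes, 5 and 3 between *HR3-RNAi* larvae and controls on the 2 diets, and 9 and 6 for the interactions. With DESeq2's size factors in edgeR, *HR3-RNAi* larvae and controls differed in 1 member after refeeding and 2 on low cholesterol. The call on low cholesterol fell to 0 without a filter on low counts, with at least 10 counts in 5 libraries, with the replicate block and with only the 2 genotypes compared, and was 2 with *roX* as a covariate. Between *TOR-RNAi* larvae and controls, only the 2 genotypes gave 0 over both diets and 5 after refeeding. With *roX* as a covariate 5 members were called after refeeding, and 1 between *TOR-RNAi* and *HR3-RNAi* larvae. The cause of these shifts was not tested.

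Same-numbered replicates did not pair (no pair of groups had every correlation over 0.1). The replicate block left 7 calls for refed *TOR-RNAi* larvae, 3 for *TOR-RNAi* over both diets and 1 for refeeding in *HR3-RNAi* larvae, and 0 elsewhere. With 1 library left out, counts ranged from 2 to 12 for refed *TOR-RNAi* larvae against controls, 0 to 3 over both diets, 0 to 1 for *HR3-RNAi* larvae after refeeding, 0 to 1 on low cholesterol and 0 to 1 for refeeding in controls, and relations to *roX* from 10 to 13. Leaving out the 2 libraries with the lowest *roX* level, chosen after the data were seen, gave 6 calls for refed *TOR-RNAi* larvae and 2 over both diets. Depth limits the low copies, several of which had 0 counts in single libraries.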

Other observations

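Among the 9 low secondary copies chosen for their relation to *roX*, counts in TOR-RNAi low cholesterol 1, the library with the lowest *roX* level, were 0 for *Vha68-3*, *Vha100-3*, *Vha16-3*, *Vha16-5*, *VhaPPA1-2*, *VhaAC39-2* and *VhaM9.7-d*, 2 for *Vha36-2* and 1 for *Vha14-2*. The principal copies of the same families were not low in this library. *Vha16-1* had 3811 CPM, the highest of its group, and *Vha14-1* had 311 CPM, also the highest of its group. In control refed 2, *Vha14-2*, *Vha16-3*, *Vha16-5* and *VhaM9.7-d* had 0 counts. A share of 0 counts in these libraries allows levels up to their floor of 3 counts.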
